A study of Mus musculus with 95 samples.

Results

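The immune genes H2-K1, H2-D1, B2m, Ifit1, Ifit3, Irf7, C3 and C4b were followed through bulk RNA sequencing of mouse brain. They were chosen by name, as the interferon-response, MHC class I and complement genes, and make up 8 of the 54532 genes in the deposited count table. The study removed FKBP51, a co-chaperone of the glucocorticoid receptor encoded by Fkbp5, in 2 mouse lines, and asked about sex and neuron class. The line FKBP51-Nex-Cre (Nex) has a Cre recombinase known to act in excitatory neurons of the forebrain. That of the line FKBP51-Dlx-Cre (Dlx) is known to act in inhibitory ones. From each line, males (M) and females (F), labelled wild-type (WT) or knockout (KO), gave tissue from the dorsal hippocampus (HIP) and from the bed nucleus of the stria terminalis (BNST), a small forebrain nucleus involved in stress and anxiety. All mice were of the C57BL/6 background and untreated. The labels give neither their ages nor whether the WT mice carried floxed alleles or Cre. There were 16 groups of 6 libraries each, except Nex HIP M KO with 5, giving 95 libraries. The design text speaks of mice per condition, so libraries of a group are taken as separate mice. The tissue held all its cell types, and glia are not targets of either Cre.

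Interferons are cytokines released in viral infection. Through their receptors they switch on a large set of interferon-stimulated genes, among them Ifit1 and Ifit3, which encode antiviral proteins that act on viral RNA and its sensing, and Irf7, a transcription factor that amplifies type I interferon production. MHC class I molecules present peptides from inside the cell to cytotoxic T cells: H2-K1 and H2-D1 encode the classical heavy chains, and B2m the beta-2-microglobulin light chain that both require at the cell surface. Complement is a cascade of plasma and tissue proteins in which C4, encoded in mouse by C4b, acts in the classical pathway ahead of C3, the central component. In brain these genes are expressed mainly by glia and vascular cells at low levels, MHC class I also by neurons, and complement tags synapses for removal by microglia. In bulk tissue, fewer cells of a type and less RNA per cell cannot be told apart.

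The files place H2-K1 (ENSMUSG00000061232) at chr17:33996017-34000333 on the minus strand, H2-D1 (ENSMUSG00000073411) at chr17:35262730-35267499 on the plus strand and C4b (ENSMUSG00000073418) at chr17:34728380-34743882 on the minus strand. C3 (ENSMUSG00000024164) lies at chr17:57203970-57228136 on the minus strand. These 4 genes share their chromosome with Fkbp5 itself, at start-to-start distances of 5.60 Mb for H2-K1, 6.33 Mb for C4b, 6.86 Mb for H2-D1 and 28.8 Mb for C3. The other 4 genes lie elsewhere. B2m (ENSMUSG00000060802) is at chr2:122147686-122153083 on the plus strand and Irf7 (ENSMUSG00000025498) at chr7:141262706-141266481 on the minus strand. Ifit3 (ENSMUSG00000074896) at chr19:34583531-34588731 and Ifit1 (ENSMUSG00000034459) at chr19:34640871-34650009 are neighbours on the plus strand. The coordinates are those of mouse build GRCm38 for 98.33% of the gene identifiers shared with GENCODE release M21. H2-K1 is one of those whose ends differ.

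The promoters of Ifit1, Ifit3 and B2m are shown because they hold the core of the interferon-stimulated response element (ISRE), a DNA motif found in promoters of many interferon-stimulated genes. The core was searched on both strands as GAAA, any 2 bases, then GAAA, in the 250 bases before each RefSeq gene start, where 978 of 32851 mouse windows (2.98%) held it. Capitals mark the core, each sequence reads 5′ to 3′ along the gene's own strand, and sequences and positions are RefSeq's on GRCm38.p6.
Ifit1, chr19:34640639-34640888, plus strand: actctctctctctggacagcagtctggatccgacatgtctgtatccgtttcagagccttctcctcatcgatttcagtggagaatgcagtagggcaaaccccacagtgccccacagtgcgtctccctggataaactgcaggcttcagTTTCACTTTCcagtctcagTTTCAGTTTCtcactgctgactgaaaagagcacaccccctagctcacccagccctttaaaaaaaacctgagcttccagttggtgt
Ifit3, chr19:34583279-34583528, plus strand: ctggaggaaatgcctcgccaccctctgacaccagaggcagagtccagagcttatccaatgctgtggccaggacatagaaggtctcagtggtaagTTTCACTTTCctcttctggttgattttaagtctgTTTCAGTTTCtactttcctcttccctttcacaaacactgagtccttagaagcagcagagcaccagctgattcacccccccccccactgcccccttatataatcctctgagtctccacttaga
B2m, chr2:122147437-122147686, plus strand: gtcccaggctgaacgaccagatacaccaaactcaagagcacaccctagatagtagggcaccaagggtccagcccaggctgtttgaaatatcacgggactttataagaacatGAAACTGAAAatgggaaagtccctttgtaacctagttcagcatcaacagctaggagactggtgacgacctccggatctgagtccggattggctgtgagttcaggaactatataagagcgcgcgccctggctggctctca
Ifit1 and Ifit3 each held 2 cores, and the letters of both cores were the same in both genes: TTTCACTTTC first, 104 bases before the start in Ifit1 and 156 in Ifit3, then TTTCAGTTTC, 85 and 122 bases before it. At least 2 cores were present in 59 of the 32851 windows (0.18%). B2m held 1 core, beginning 139 bases before its start. Of the 7 members with a RefSeq promoter window, H2-K1, H2-D1, Irf7 and C3 held no such letters. Only the exact pattern was searched, so a window without it may still hold a variant of the element. The interferon-gamma activated site, searched as TTCNNNGAA on both strands, was in 0 of the 7 windows and in 7.02% of all windows. C4b is named only.

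The windows of H2-K1 and H2-D1, the 2 classical heavy chain genes, are shown because the pair followed each other most closely across libraries. Capitals mark their longest shared run, 47 bases, which begins 141 bases before the start of H2-K1 and 201 before that of H2-D1.
H2-K1, chr17:34000348-34000597, minus strand: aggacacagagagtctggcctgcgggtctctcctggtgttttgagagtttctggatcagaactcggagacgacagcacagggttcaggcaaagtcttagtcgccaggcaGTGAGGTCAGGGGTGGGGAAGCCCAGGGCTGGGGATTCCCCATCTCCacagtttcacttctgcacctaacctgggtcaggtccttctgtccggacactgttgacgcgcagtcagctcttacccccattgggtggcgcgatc
H2-D1, chr17:35262844-35263093, plus strand: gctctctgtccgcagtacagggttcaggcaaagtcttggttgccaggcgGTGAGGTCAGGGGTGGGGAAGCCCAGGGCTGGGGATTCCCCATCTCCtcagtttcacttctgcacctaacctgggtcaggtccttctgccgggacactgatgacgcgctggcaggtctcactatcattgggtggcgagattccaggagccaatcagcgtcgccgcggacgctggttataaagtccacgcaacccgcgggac
The likeness of the 2 genes extends to their coding parts, so reads could be shared between them and with the H2-Q and H2-T genes, and their separate values are uncertain to that extent. The same holds for Ifit3 and its near copy Ifit3b, and for C4b and C4a. Irf7 overlaps Phrf1 on the opposite strand, and the labels do not say whether counting used strand. Over all libraries Phrf1 had 135204 counts and Irf7 4619. B2m overlaps Patl2, which had only 344 counts against 137314 for B2m.

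Libraries held from 19589425 to 31236974 counts. Fkbp5, the check of the labels, fell in KO in Nex HIP and in Dlx BNST: to 27.3 from 54.3 CPM (counts scaled to a common library size and composition) in Nex HIP M, to 27.7 from 58.3 in Nex HIP F, to 6.25 from 33.3 in Dlx BNST M and to 8.43 from 26.6 in Dlx BNST F (edgeR's quasi-likelihood test, p-values adjusted after Benjamini and Hochberg, the largest of the 4 adjusted p = 0.00174). In Nex BNST and Dlx HIP it did not pass the test in either sex, with log2 fold changes between -0.09 and 0.17. The dissections kept their identity: of 8 hippocampal markers 7 were higher in HIP in each of the 4 line and sex groups of WT mice, and of 12 bed nucleus markers 10 or 11 were lower. One library stood apart, number 8 of Dlx HIP F KO, with 17863 genes detected where every other library had at least 23552, and a composition scaling factor of 0.831 against 0.927 to 1.07.

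The 8 genes covered a wide range of levels. Per kilobase of gene length, so that genes can be compared, the median over the 95 libraries was 70.9 CPM per kb for B2m, 24.5 for C4b, 18.9 for H2-D1, 12.8 for H2-K1, 3.20 for Ifit3, 0.750 for Ifit1, 0.487 for Irf7 and 0.171 for C3. The light chain was thus well above either heavy chain, and C4b well above C3. The raw counts behind these values ran from 954 to 2318 for B2m and from 1161 to 7119 for C4b, but only from 14 to 263 for Ifit1, 11 to 347 for Irf7 and 0 to 163 for C3, with medians of 45, 42 and 20. At a count of 20, counting error alone is large, and small differences in C3 were not detectable at this depth.

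Less abundant genes had in general the wider spread of group means, and C4b was an abundant gene with a wide one. The highest of the 16 group means exceeded the lowest 1.51-fold for B2m, 1.96-fold for H2-D1, 2.11-fold for H2-K1, 3.39-fold for Ifit1, 3.42-fold for Ifit3, 3.67-fold for C4b, 4.67-fold for Irf7 and 7.35-fold for C3. The lowest group was Nex HIP M KO for H2-K1, H2-D1, Ifit1, Irf7 and C4b, and Dlx HIP M WT for B2m, Ifit3 and C3. The highest was a Dlx female group for each gene, but not in every case without the libraries that stood apart. Without library 8 of Dlx HIP F KO, the ratio was 1.73 for H2-K1, 3.02 for Ifit1 and 3.38 for Irf7. Without library 7 of Dlx BNST F KO as well, it was 2.13 for Ifit1, 2.67 for Ifit3 and 2.26 for Irf7, and Dlx BNST M KO was the highest group for Ifit1 and Ifit3. These omissions were chosen after the data were seen. When the groups were ranked by level, the gap in mean log2 level between neighbours was set against the larger SD of the 2 groups. Of the 15 steps from each group to the next, the gap exceeded that SD at 1 step for H2-D1 and at no step for the other 7 genes. Ranking 16 means makes such steps small by itself. The steps therefore show only that the order of neighbours is not firm, and say nothing on whether groups farther apart differ.

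**Figure D1:**
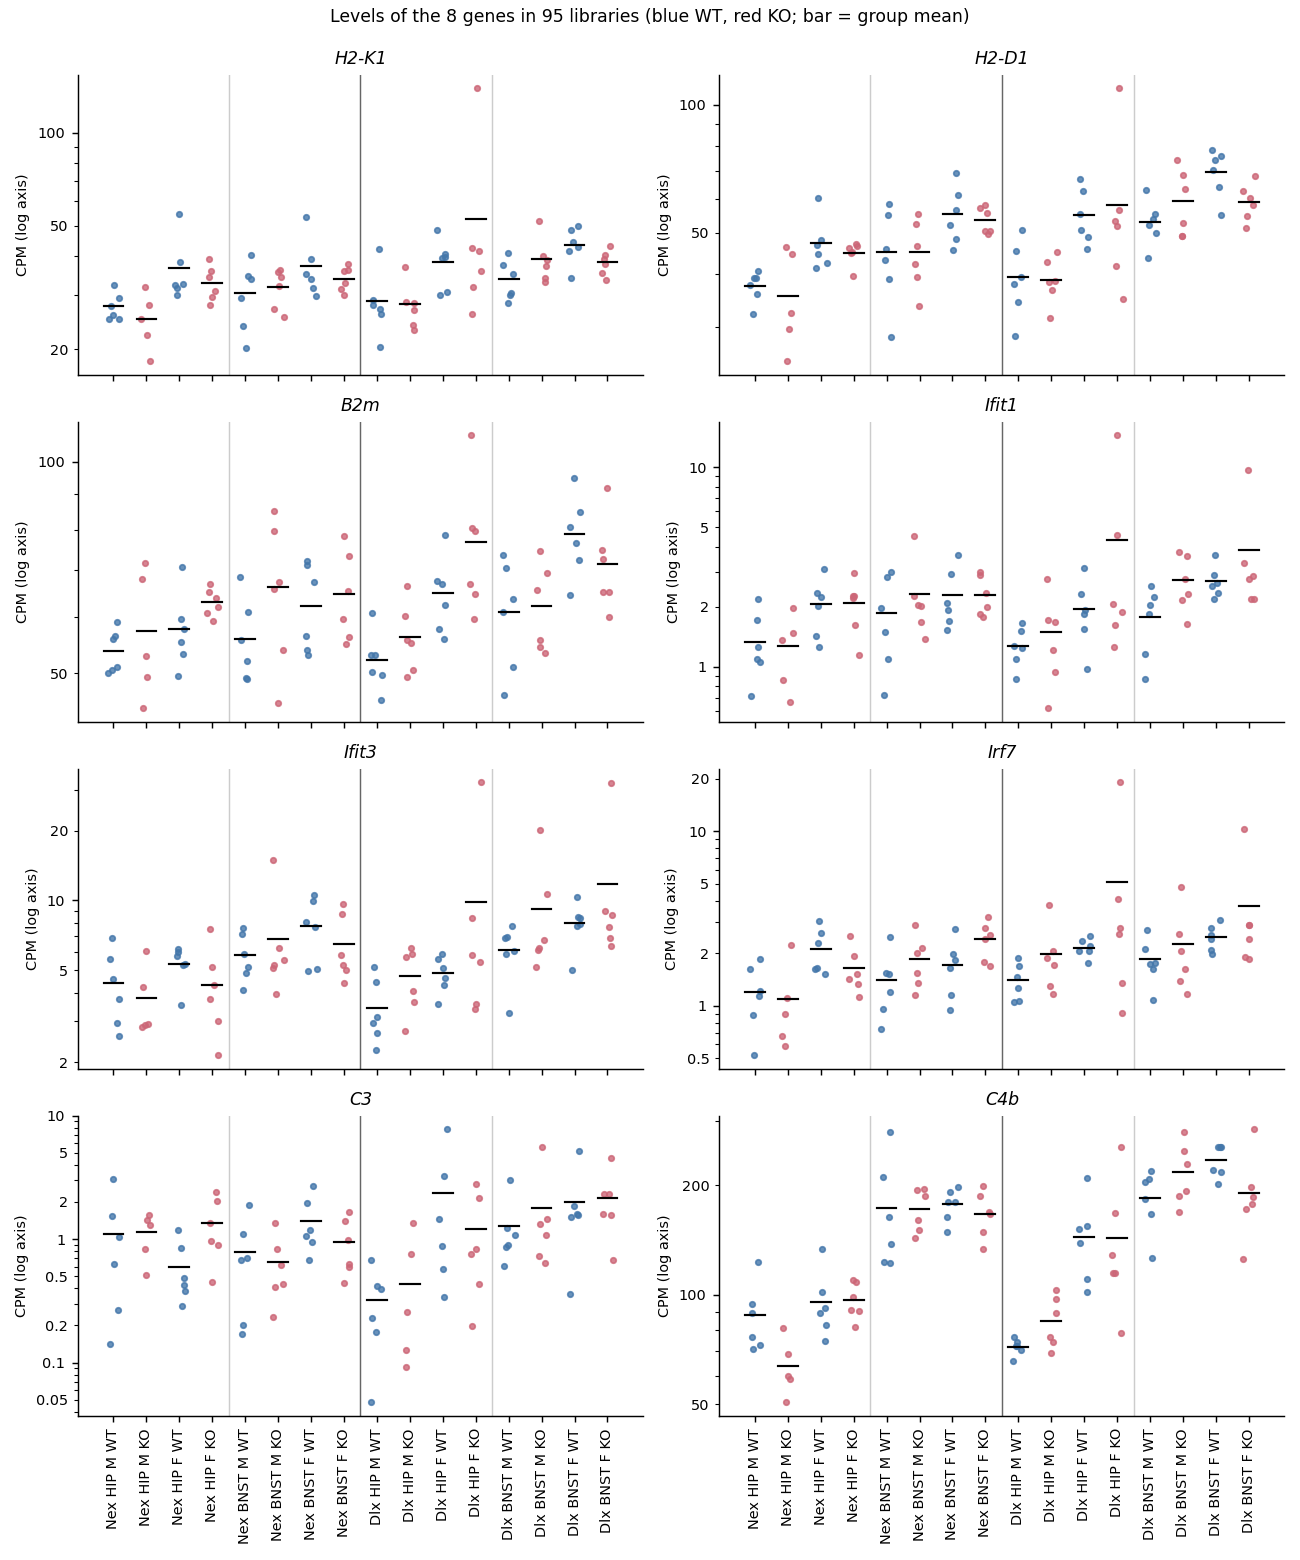
Each point is 1 library's CPM (log axis, a different range in each panel), with groups along the x axis ordered by line, region, sex and genotype. Blue points are WT, red points KO and black bars group means. C4b sits lower in HIP than in BNST in both lines, a single Dlx HIP F KO library lies far above its group for most genes, and 1 Dlx HIP M KO library with C3 at 0 is not drawn.

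Within groups the genes rose and fell in sets. Correlations were taken across libraries of 1 region, on log2 values from which each group's mean had been removed, for 56 relations, with permutation of libraries within groups. H2-K1 and H2-D1 had Pearson's r of 0.91 and Spearman's rho of 0.81 in HIP (n = 47 libraries), and r of 0.82 and rho of 0.77 in BNST (n = 48), each with permutation p = 1e-05, the smallest that the permutations can give. Without the 2 libraries farthest from the median of H2-K1, r was 0.84 and 0.78. Ifit1 and Ifit3 had r = 0.83 and rho = 0.77 in HIP (permutation p = 1e-05 for both) and r = 0.71 and rho = 0.63 in BNST (permutation p = 2e-05 and 1e-05), and 0.70 and 0.55 without the 2 farthest. Ifit3 and Irf7, the effector and the transcription factor, had r = 0.78 and rho = 0.60 in HIP and r = 0.82 and rho = 0.74 in BNST, and r = 0.59 and 0.70 without the 2 farthest. All of these had adjusted permutation p of at most 0.000662 over the 56 relations. In Nex and in Dlx taken alone, r of these 3 pairs lay between 0.44 and 0.95.

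Over all libraries C4b followed Ifit3 more in HIP than in BNST, but not in Nex taken alone. With Ifit3, its r was 0.61 and rho 0.42 in HIP (permutation p = 0.00052 and 0.00675, adjusted 0.00162 and 0.0151) and r was 0.06 and rho 0.18 in BNST (permutation p = 0.735 and 0.23, adjusted 0.748 and 0.253). Without the 2 libraries farthest in Ifit3, r was 0.36 and 0.26, so the gap between the regions was smaller without them. In Nex alone, r of C4b with Ifit3 was 0.35 in HIP and 0.36 in BNST, and in Dlx alone 0.73 and -0.18. The difference between the regions was not tested. With H2-D1, C4b had r = 0.54 and rho = 0.37 in HIP (permutation p = 0.00507 and 0.0179, adjusted 0.01 and 0.0286) and r = 0.58 and rho = 0.61 in BNST (permutation p = 0.00022 and 4e-05, adjusted 0.000821 and 0.00028). Without the 2 farthest in H2-D1, r was 0.24 in HIP and 0.54 in BNST. C3 was the member least tied to the rest, with r of at most 0.49, that with C4b in HIP.

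Searching 15755 genes for the pattern most like each member, by Spearman's rho over 95 libraries after removal of group means, returned relatives for most of them. For Ifit1 these were Ifit3 (rho = 0.70), Parp14 and Oasl2, both interferon-stimulated genes. For Ifit3 they were Ifit3b, Ifit1 and Irf7, and for Irf7 they were Ifit3, Ifit3b and Oasl2. For H2-K1 they were H2-D1 (0.79), H2-Q4 (0.71), another class I gene, and Ifitm3 (0.71), and for H2-D1 they were H2-K1, Npc2, a lysosomal cholesterol carrier (0.71), and H2-Q4 (0.69). B2m stood with Rap1a (0.72), Prdx1 (0.70) and Bnip3l (0.69), none of them an immune gene by name. C4b stood with Gfap, the astrocyte intermediate filament, Itgb5 and Laptm5, and C3 with A2m, Slc2a12 and Odf3b.

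The first comparison asked whether loss of FKBP51 in either neuron class changed these genes. None of the 8 passed the test in KO against WT. C4b came nearest, in Nex HIP males. Its lowest, median and highest CPM were 71.1, 82.9 and 123 in WT (n = 6) and 50.8, 60.0 and 81.0 in KO (n = 5). The KO level was lower on the whole, with the highest KO library inside the WT range. The means were 63.9 ± 11.5 and 87.9 ± 19.6 CPM (SD), and the log2 fold change was -0.45 (SE 0.15, edgeR adjusted p = 0.348). An exact two-sided permutation test of this 1 gene's log2 levels gave p = 0.026, where 0.00216 is the smallest it allows. In Nex HIP females C4b stood at 96.7 ± 11.3 in KO against 95.7 ± 20.6 CPM in WT (SD, n = 6 each).

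Counted over the 8 comparisons of KO with WT (2 lines, 2 regions, 2 sexes), 0 of 8 members passed the edgeR test in each at an adjusted p of 0.05. Over all genes the share that passed was 0.0106% in Nex HIP M and in Nex HIP F, 0.00539% in Dlx BNST M and in Dlx BNST F, and 0.0% in the other 4, so hardly any gene but Fkbp5 passed. At an unadjusted p under 0.05, 1 of 8 members was found in Nex HIP M, 1 in Nex HIP F, 3 in Dlx HIP F (0 without KO library 8), 1 in Dlx BNST F and 0 in the other 4 comparisons, where the shares over all genes were 9.82%, 2.48%, 10.6% and 5.59% in the 4 named. DESeq2 and limma voom called 0 members in each. The mean of both sexes in each line and region gave 0 members, as did the 12 tests of whether the KO effect differed by sex, region or line. In those 12, the share of all genes was 0.0107% for the region in Dlx M, 0.0054% in Dlx F and 0.00529% in Nex F, 0.00516% for the line in HIP F and 0.00515% in BNST M and BNST F, and 0.0% in the other 6. The smallest adjusted p of a member in them was 0.487, for Irf7 and Ifit3 in the line test of HIP F, where the KO effects (Nex minus Dlx) differed by -1.67 (SE 0.61) and -1.37 (SE 0.52) on the log2 scale, and by -0.50 and -0.45 without library 8 of Dlx HIP F KO. In Dlx BNST, C4b, H2-D1 and H2-K1 had sex differences in the KO effect (M minus F) of 0.55 (SE 0.22), 0.41 (SE 0.16) and 0.42 (SE 0.16) on the log2 scale, with an adjusted p of 0.548 for all 3.

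The intervals show what sizes these tests leave. For B2m, the most evenly expressed, the 95% interval of the log2 fold change in Nex HIP M ran from -0.10 to 0.29 and in Nex HIP F from -0.06 to 0.31. For H2-D1 in the same groups it ran from -0.31 to 0.18 and from -0.31 to 0.15. For C3, at low counts, it ran from -1.02 to 1.09 in males and from 0.11 to 2.21 in females, where the KO level was 1.35 ± 0.744 and the WT level 0.598 ± 0.341 CPM (SD, n = 6 each; log2 fold change 1.16, adjusted p = 1). The 2 groups of C3 overlapped, with 0.452 to 2.41 CPM in KO and 0.285 to 1.18 in WT.

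**Figure D2:**
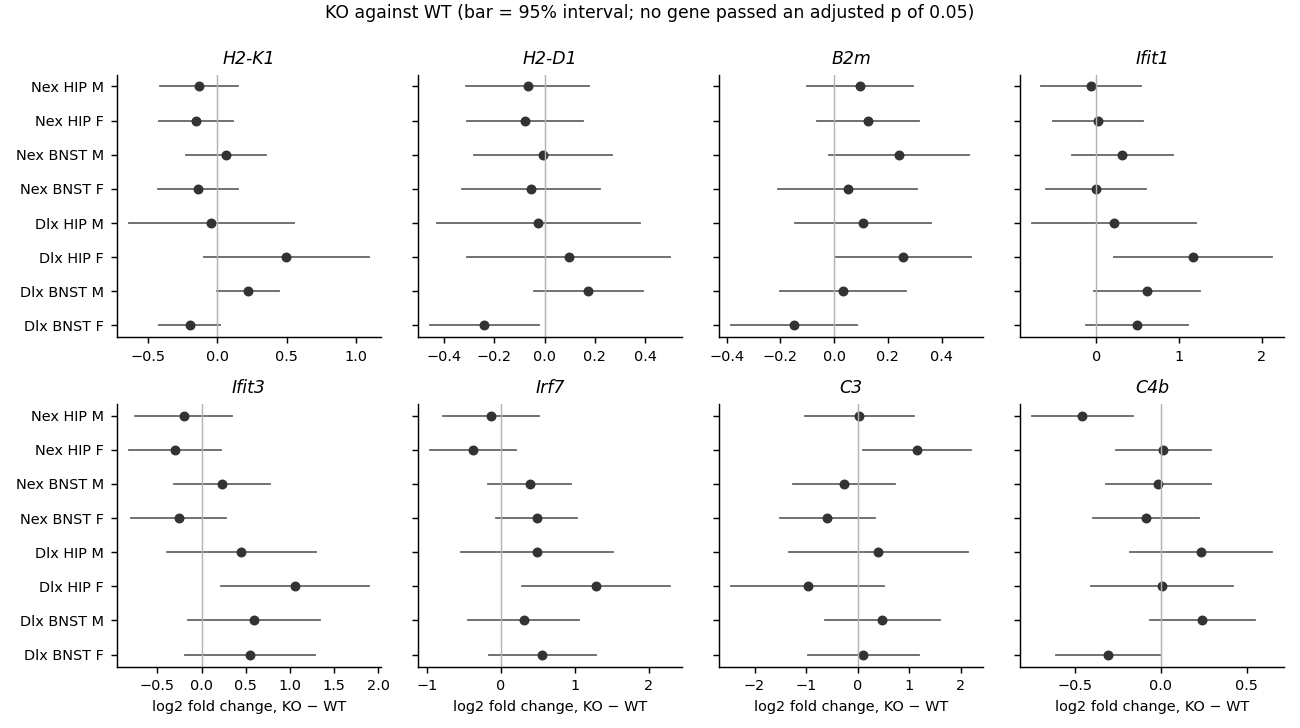
Points are log2 fold changes of KO against WT for each gene in the 8 line, region and sex groups, with 95% intervals as bars, and the x axis differs between panels. The intervals are widest for C3, and narrowest for B2m except in Dlx BNST, where those of H2-D1 and H2-K1 are narrower. None of the genes passed an adjusted p of 0.05.

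Besides C3 in Nex HIP F, the KO-minus-WT values above 1 on the log2 scale were those of the interferon genes in Dlx HIP F, where 1 library was far above the rest. In Dlx HIP F, Ifit1 ran from 0.980 through 1.88 to 3.14 CPM in WT (lowest, median, highest) and from 1.26 through 1.98 to 14.5 in KO. Ifit3 ran from 3.56 through 4.84 to 5.86 in WT and from 3.38 through 5.62 to 32.4 in KO. Irf7 ran from 1.76 through 2.14 to 2.49 in WT and from 0.906 through 2.68 to 19.1 in KO. The groups overlapped for all 3 genes, and the highest value was each time KO library 8. The log2 fold changes were 1.17 (SE 0.49) for Ifit1, 1.06 (SE 0.43) for Ifit3 and 1.29 (SE 0.51) for Irf7, with an adjusted p of 0.465 for each. Without library 8 they were 0.22 (SE 0.33), 0.14 (SE 0.24) and 0.12 (SE 0.30). In Dlx BNST F, where the log2 fold changes were 0.49 (SE 0.32) for Ifit1, 0.55 (SE 0.37) for Ifit3 and 0.56 (SE 0.37) for Irf7, leaving out KO library 7 gave -0.03, -0.06 and -0.06.

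Library 8 of Dlx HIP F KO was the highest of its 6 for all 8 members. Against the median of the other 5 it was 7.65-fold for Ifit1, 7.44-fold for Irf7, 5.95-fold for Ifit3, 3.89-fold for H2-K1, 3.67-fold for C3, 2.23-fold for C4b, 2.11-fold for H2-D1 and 1.63-fold for B2m. Of 52 other interferon-stimulated genes it was the highest library for 26, of 22 other class I genes for 14 and of 14 microglial markers for 7, while over all genes it was the highest for 33.1%. The BNST library of the same number was near its group, at 1.17-fold for Ifit3 and 1.04-fold for H2-K1. Beside its low number of genes detected, library 8 was the highest of its group for the summed markers of blood (363 CPM, lowest library 26.7), endothelium (720, lowest 461), the bed nucleus (509, lowest 119), macrophages with leukocytes, and microglia. Their part in these values was not tested.

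Library 7 of Dlx BNST F KO had another make-up. Ifit1 was 3.49-fold, Ifit3 4.16-fold and Irf7 4.27-fold the median of the other 5, and B2m 1.40-fold, but H2-K1 was 1.15-fold, H2-D1 0.903-fold and C4b 0.677-fold. It was the highest library for 44 of the 52 other interferon-stimulated genes, against 24.7% of all genes and 0 of 14 microglial markers. The HIP library of the same number had Ifit3 at 0.584-fold. One library of Dlx BNST M KO had Ifit3 at 3.26-fold and Irf7 at 2.94-fold with H2-K1 at 1.40-fold and H2-D1 at 1.41-fold, and was highest for 26 of 52, against 31.4% of all genes. It had the fewest genes detected after library 8, 23552, and the highest blood marker sum of its group, 128 CPM (lowest library 41.8), and the part of these was not tested. One library of Nex BNST M KO had Ifit3 at 2.84-fold and Ifit1 at 2.23-fold, and was highest for 38 of 52, against 29.1% of all genes. The HIP library of the same number was also the highest of its group for Ifit3, at 2.08-fold, and for Irf7, at 2.82-fold. All 4 libraries were KO, and the labels give nothing that sets them apart from their groups.

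**Figure D3:**
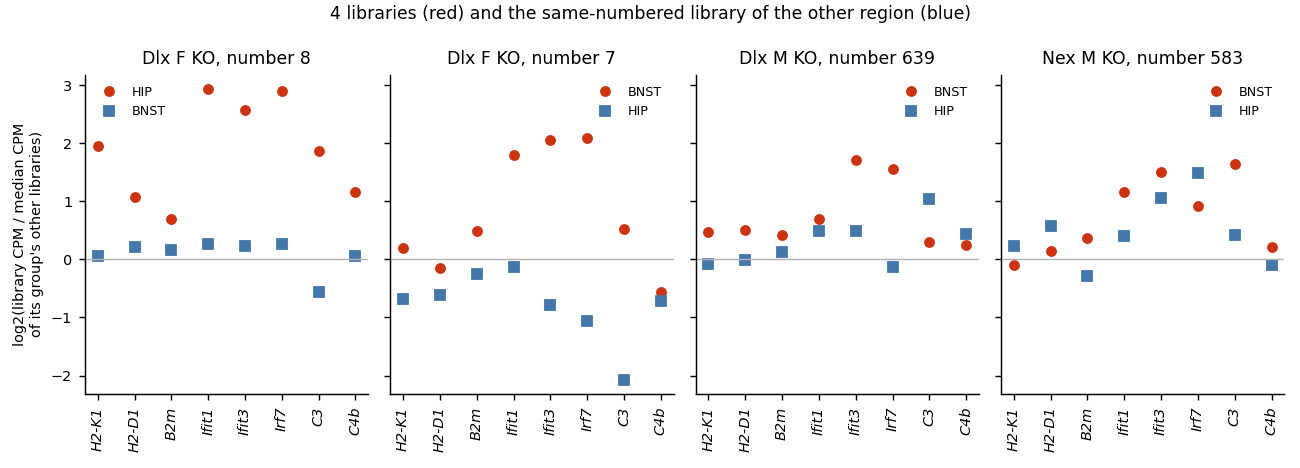
The y axis gives the log2 ratio of 1 library's CPM to the median of the other libraries of its group, for the 8 genes along the x axis, in red for the library that stands apart and in blue for the library of the same number from the other region. All 8 genes lie above 0 in Dlx HIP F KO number 8, and in Dlx BNST F KO number 7 the 3 interferon genes do while C4b lies below.

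Whether a mouse's level in HIP went with its level in BNST was asked of the 42 pairs of libraries that share a number, taking the number as a mark of the mouse, which the labels do not state. For the 8 members r ran from -0.26 for C3 to 0.27 for C4b (permutation p = 0.211 and 0.149), and the median over 15755 genes was 0.05. No member passed an unadjusted permutation p of 0.05 over all pairs. Within Nex alone (21 pairs) Irf7 had r = 0.67 and rho = 0.50 (permutation p = 0.00323 and 0.0389) and C4b r = 0.55 and rho = 0.53 (permutation p = 0.0188 and 0.0251), while within Dlx (21 pairs) they had r of -0.16 and 0.09. C3 had r = 0.39 and rho = 0.49 within Nex (permutation p = 0.144 and 0.0419) and r = -0.57 and rho = -0.57 within Dlx (permutation p = 0.0234 and 0.0172). Ifit3 had r = 0.43 (permutation p = 0.0132) once the 2 pairs farthest from the HIP median were left out.

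Members were called between the regions and not between the genotypes, a contrast that all genes shared. Of all genes, 14.8% to 26.3% were called in each direction between the regions in WT, and at most 0.0106% between the genotypes. C4b was the member called in every line and sex. In WT mice C4b was lower in HIP than in BNST in both lines and both sexes. In Dlx males it ran from 65.9 through 72.3 to 76.6 CPM in HIP and from 126 through 194 to 220 in BNST. The 2 sets of libraries did not overlap, where levels of 13.3% of all genes were lower in HIP with no overlap. The log2 fold change, HIP minus BNST, was -1.36 (SE 0.13, edgeR adjusted p = 2.42e-09), with means of 72.0 ± 3.65 and 185 ± 34.5 CPM (SD, n = 6 each).

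In Nex females C4b ran from 74.8 through 90.6 to 133 CPM in HIP and from 149 through 180 to 198 in BNST, again with no overlap (12.9% of all genes), and the log2 fold change was -0.89 (SE 0.12, edgeR adjusted p = 5.66e-07). In Nex males it ran from 71.1 through 82.9 to 123 CPM in HIP and from 123 through 151 to 281 in BNST, where the highest HIP and lowest BNST libraries just crossed (log2 fold change -0.97, SE 0.18, edgeR adjusted p = 0.000136). In Dlx females it ran from 102 through 146 to 210 CPM in HIP and from 202 through 238 to 256 in BNST, again crossing at the edge (log2 fold change -0.72, SE 0.23, edgeR adjusted p = 0.0221). The same direction held in the KO groups. C4b was 2.69-fold higher in BNST in Nex males, 1.73-fold in Nex females, 2.56-fold in Dlx males and 1.33-fold in Dlx females (1.58-fold without HIP library 8), and the libraries overlapped in the last alone (levels of 10.2%, 14.2% and 15.6% of all genes were lower in HIP with no overlap in the first 3). None of the 4 tests of whether the regional difference depended on genotype passed for any member. C4a, the near copy of C4b, did not follow it: its log2 differences were -0.30, 0.00, -0.21 and 0.29 in the order Nex M, Nex F, Dlx M and Dlx F, and none passed the test.

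Most other members stood below 0 in HIP, though few passed the test, and 3 values stood above 0, namely C3 in Nex M (0.51) and Dlx F (0.23) and Irf7 in Nex F (0.31). Of 8 members, 1 was called lower in Nex M, 3 in Nex F, 4 in Dlx M and 1 in Dlx F, and none higher. The share of all genes called lower was 19%, 26.3%, 24.1% and 15.2%, and that called higher 16.7%, 26.3%, 22.5% and 14.8%. H2-D1 was called in Nex F (log2 fold change -0.23, SE 0.09, adjusted p = 0.0327) and Dlx M (-0.43, SE 0.13, adjusted p = 0.00625). Ifit3 was called in Dlx M (-0.83, SE 0.30, adjusted p = 0.0256). In Dlx M, Ifit3 ran from 2.26 through 3.04 to 5.16 CPM in HIP and from 3.26 through 6.46 to 7.72 in BNST, so the groups overlapped.

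C3 was called lower in HIP in Nex F and in Dlx M, each call resting on 1 library. In Nex F it ran from 0.285 through 0.453 to 1.18 CPM in HIP and from 0.671 through 1.11 to 2.70 in BNST (log2 fold change -1.24, SE 0.42, adjusted p = 0.0164), and without the highest BNST library the change was -0.95 (adjusted p = 0.0667). In Dlx M it ran from 0.0480 through 0.311 to 0.678 CPM in HIP and from 0.601 through 0.988 to 3.04 in BNST (log2 fold change -1.98, SE 0.68, adjusted p = 0.0193), and without the highest BNST library the change was -1.51 (adjusted p = 0.0796). The groups overlapped in both. The call of Ifit3 in Dlx M ended without any 1 of 3 libraries, that of H2-D1 in Nex F without any 1 of 6, and that of C4b in Dlx F without either of 2 HIP libraries, numbers 3 and 14 (log2 fold changes -0.64 and -0.66, adjusted p = 0.0543 and 0.0526).

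With both genotypes averaged, a choice made after the data were seen, more members passed in the males of both lines. In Nex F the count stayed at 3, and C3 was no longer called there (-0.37, adjusted p = 0.289). C4b was called in all 4 groups, at log2 fold changes of -1.20 in Nex M, -0.84 in Nex F, -1.36 in Dlx M and -0.55 in Dlx F. Ifit3 was called in Nex M (-0.62), Nex F (-0.56) and Dlx M (-0.90), and H2-D1 in the same 3 groups (-0.30, -0.25 and -0.53). In Dlx M 7 of 8 members were called, Irf7 the exception, against 61.5% of all genes. In Dlx F only C4b was called (45.0% of all genes), and 4 were once HIP KO library 8 was left out, namely C4b (-0.70), Ifit3 (-0.95), Ifit1 (-0.62) and H2-D1 (-0.35), against 58.6% of all genes. For Nex M there were 4 (50.1% of all genes) and for Nex F 3 (63.5%).

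**Figure D4:**
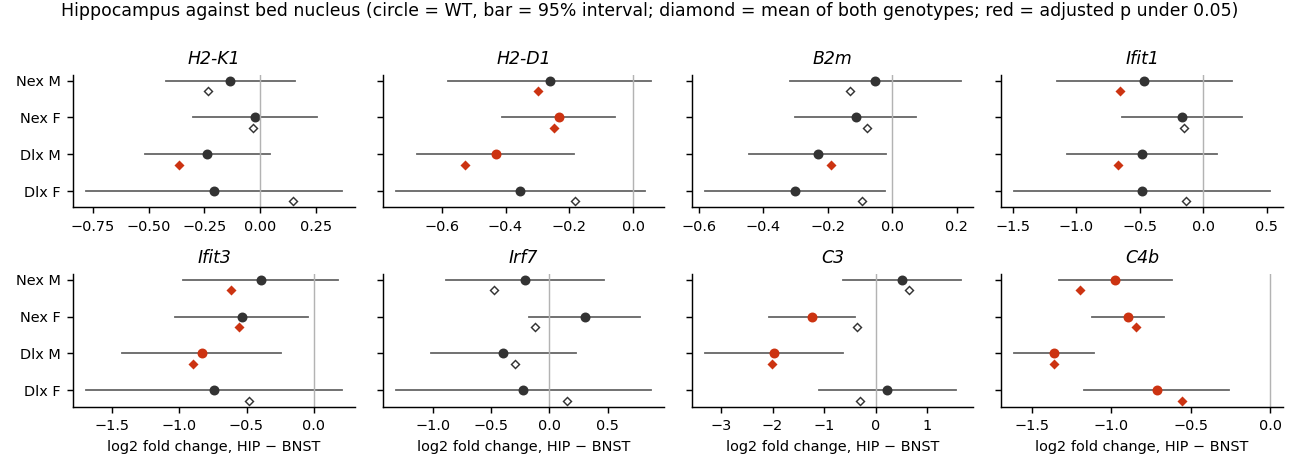
Circles are log2 fold changes of HIP against BNST in WT mice with 95% intervals, diamonds the mean of both genotypes, and red marks an adjusted p under 0.05; the x axis differs between panels. C4b is red in every row and lies left of 0, between -1.36 and -0.55.

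Genes of the same pathways did not move as 1 block between the regions. Of the other interferon-stimulated genes tested, 12 of 49 were called lower in HIP and 1 higher in Nex M, 11 of 50 and 5 in Nex F, 20 of 49 and 1 in Dlx M, and 5 of 51 and 0 in Dlx F, with medians of -0.31, -0.10, -0.39 and -0.26. The shares of all genes called lower were 19%, 26.3%, 24.1% and 15.2%. The interferon-stimulated genes lay above these shares in the males of both lines and below them in the females. The difference from all genes was not tested. Xaf1, an interferon-induced pro-apoptotic factor, was lower at -1.05, -0.94 and -1.64 in Nex M, Nex F and Dlx M (largest adjusted p = 6.87e-05), and stood at -0.75 in Dlx F (adjusted p = 0.0629). Mx2, a GTPase with antiviral activity, was lower at -0.84, -0.82, -1.77 and -1.24 (largest adjusted p = 0.0232), and Samhd1, a nucleotide hydrolase that restricts viruses, at -0.33, -0.28, -0.43 and -0.25 (largest adjusted p = 0.00787). Among other class I genes, 3, 5, 7 and 2 of 22 were lower and 0, 1, 1 and 0 higher. Their share called lower was above that of all genes in Dlx M alone. The nonclassical heavy chain H2-T23 stood at -0.91, -0.72 and -1.04 (largest adjusted p = 0.000765) and at -0.20 in Dlx F (adjusted p = 0.624), and the chaperone Canx at -0.32, -0.30, -0.31 and -0.36 (largest adjusted p = 0.0259).

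Receptors and kinases that carry the interferon signal were called in both directions. Of 22, 7, 8, 7 and 6 were higher in HIP and 5, 5, 6 and 2 lower, where the shares of all genes were those given above for the members. The 2 chains of the interferon-gamma receptor were opposed: Ifngr2 was higher in HIP by 1.24, 1.16, 1.22 and 1.14 on the log2 scale (largest adjusted p = 9.83e-08), and Ifngr1 lower at -0.75, -0.68, -0.68 and -0.62 (largest adjusted p = 0.00026). Tyk2, a kinase of the type I interferon receptor, was higher by 0.82, 0.74, 0.76 and 0.68 (largest adjusted p = 0.000253). Of the other complement genes, 6 of 27, 8 of 26, 11 of 26 and 5 of 25 were lower and 4, 5, 4 and 2 higher. Cd59a, which blocks the membrane attack complex, was lower at -1.65, -1.16, -1.81 and -1.13 (largest adjusted p = 0.000246), and Itgb2, the beta chain of the complement receptor CR3, at -0.84, -0.88, -0.95 and -0.81 (largest adjusted p = 0.0016). Serping1, the C1 inhibitor, was higher by 1.01, 1.23, 1.06 and 0.75 (largest adjusted p = 0.00321).

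Oligodendrocyte and microglial markers were mostly lower in HIP, as C4b was. All 12 oligodendrocyte markers were called lower in each of the 4 groups, with medians of -1.20, -1.41, -1.89 and -1.13 on the log2 scale. Group means of their summed level in WT were 3669 to 6387 CPM in HIP and 12209 to 14130 in BNST. Single libraries ran from 2482 to 8916 and from 9102 to 17084. Of 13 endothelial markers 8, 1, 8 and 1 were lower and 0, 1, 0 and 0 higher. The shares of all genes called lower were 19%, 26.3%, 24.1% and 15.2%. The endothelial share was above these in the males of both lines and below them in the females. Of 14 microglial markers, 12, 13, 12 and 8 were lower in HIP and none higher, with medians of -0.56, -0.59, -0.44 and -0.55 on the log2 scale. Group means of their summed level in WT were 406 to 506 CPM in HIP and 580 to 721 in BNST. Single libraries ran from 369 to 561 and from 500 to 784. Of 12 astrocyte markers 2, 5, 4 and 2 were lower and 3, 4, 3 and 1 higher. The part of these cells in the regional difference of C4b was not tested.

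The sexes were compared within each line and region. In WT, males stood below females for all 8 genes in Nex BNST, Dlx HIP and Dlx BNST and for 7 of 8 in Nex HIP, C3 being the exception, but only C4b in Dlx HIP passed the test. There it ran from 65.9 through 72.3 to 76.6 CPM in males and from 102 through 146 to 210 in females, with no overlap between the sexes (levels of 1.68% of all genes were lower in males with no overlap). The means were 72.0 ± 3.65 and 145 ± 38.5 CPM (SD, n = 6 each), a log2 fold change, M minus F, of -0.997 (SE 0.21, edgeR adjusted p = 0.0493). Of all genes 0.224% passed, 0.148% as lower in males. An exact two-sided permutation test gave p = 0.00216, the smallest it allows. The adjusted p is at the edge: leaving out any 1 of 10 of the 12 libraries ended the call, with adjusted p from 0.0624 to 0.176 and log2 fold changes from -1.02 to -0.86. No member passed in Nex HIP (0.122% of all genes), Nex BNST (0.0535%) or Dlx BNST (0.0701%), where 4, 1 and 4 of 8 had an unadjusted p under 0.05 by edgeR, against 6.52%, 4.17% and 9.01% of all genes.

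In Dlx BNST the difference in C4b was smaller, with 126 through 194 to 220 CPM in males and 202 through 238 to 256 in females, overlapping (log2 fold change -0.36, SE 0.16, adjusted p = 0.483). In Nex the sexes had nearly the same C4b in WT, with log2 fold changes of -0.11 (SE 0.14) in HIP and -0.04 (SE 0.16) in BNST. Among KO mice in Nex HIP C4b did separate, at 50.8 to 81.0 CPM in males and 81.5 to 110 in females (0.879% of all genes were lower in males with no overlap). H2-D1 separated in Nex HIP WT, at 32.2 to 40.5 CPM in males and 41.2 to 60.4 in females (0.689% of all genes), with a log2 fold change of -0.33 (SE 0.12, adjusted p = 0.561).

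Averaged over both genotypes, H2-K1 was lower in males in Nex HIP (-0.38, adjusted p = 0.0475, 1.69% of all genes) and B2m in Dlx BNST (-0.29, adjusted p = 0.038, 7.03%), and no member was in Nex BNST (0.134%). In Dlx HIP 4 were lower, namely C4b (-0.88), B2m (-0.38), H2-D1 (-0.54) and C3 (-2.16), against 4.84% of all genes. Without HIP KO library 8 there were 5, C4b (-0.74), B2m (-0.30), H2-D1 (-0.38), H2-K1 (-0.37) and C3 (-1.92), against 13.7% of all genes. The interferon genes did not pass in any of these.

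**Figure D5:**
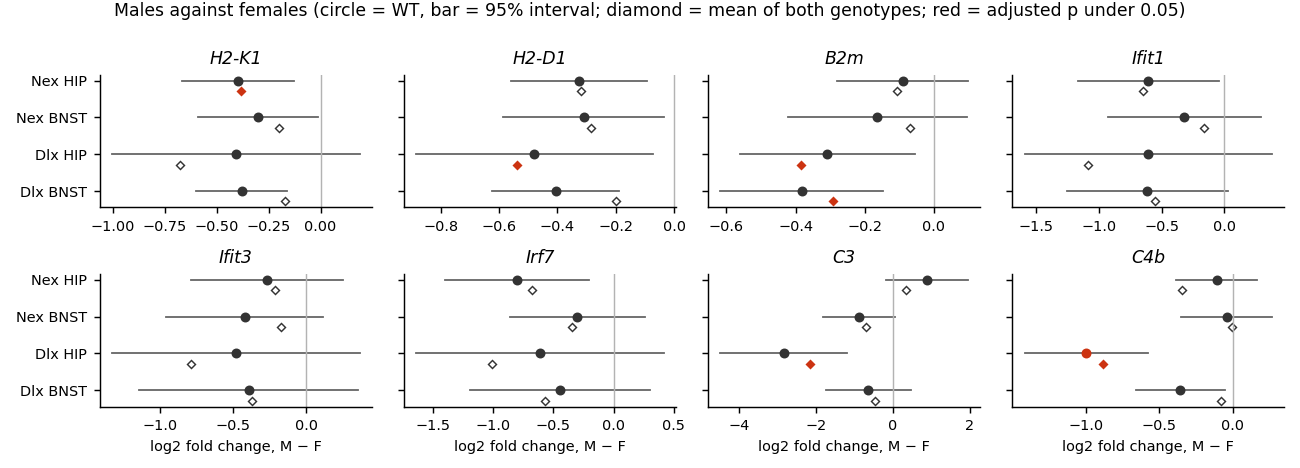
Circles are log2 fold changes of males against females in WT mice with 95% intervals, diamonds the mean of both genotypes, and red marks an adjusted p under 0.05; the x axis differs between panels. Nearly all circles lie left of 0, and C4b in Dlx HIP, at -0.997, is the only red one.

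Related genes showed the same lean with few calls. Of the other interferon-stimulated genes, 43 of 48 stood below 0 (M minus F) in Nex HIP, 39 of 49 in Nex BNST, 39 of 48 in Dlx HIP and 44 of 51 in Dlx BNST, with medians of -0.27, -0.14, -0.40 and -0.20 and 0 called by edgeR in each, while the median over all genes was between 0.00 and 0.01. At an unadjusted p under 0.05 there were 17, 3, 15 and 5 of them, against 6.52%, 4.17%, 12% and 9.01% of all genes. All 14 microglial markers stood below 0 in both Dlx regions, with 1 called in each, and 9 and 11 of 14 in Nex HIP and Nex BNST with 0 called. Choroid plexus markers varied strongly in Dlx HIP. Their summed level in WT was 118 to 184 CPM in males and 209 to 2135 in females, and C3 ran there from 0.0480 to 0.678 CPM in males and from 0.343 to 7.77 in females. The oligodendrocyte sum there was 3669 ± 837 CPM in males and 6387 ± 2075 in females, and the endothelial sum 396 ± 54.6 and 491 ± 23.9 (SD, n = 6 each), with all 12 oligodendrocyte markers below 0 (median -0.81) and 0 called. Female library 1 was the highest for C3, C4b, the choroid plexus sum and the oligodendrocyte sum alike. The part of these cells in the C3 and C4b differences was not tested. In both lines all females have lower title numbers than all males, so sex and whatever the numbers follow, such as cohort, cannot be told apart in either line.

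The lines were compared last, as Nex against Dlx in mice of 1 sex and region. Line and cohort cannot be told apart in this design. Averages over both genotypes also include KO mice, in which the lines target different neuron classes, so they are not a comparison of line alone. No member passed in WT in HIP M or HIP F (0.0% of all genes each), BNST M (0.566%) or BNST F (0.664%), and at an unadjusted p under 0.05 there were 1, 2, 0 and 3 of 8 by edgeR, against 5.60%, 8.92%, 13.7% and 10.7% of all genes. C4b in BNST F did not overlap, at 149 to 198 CPM in Nex and 202 to 256 in Dlx (0.374% of all genes were lower in Nex with no overlap; log2 fold change -0.41, SE 0.16, adjusted p = 0.297). Averaged over both genotypes, C4b was lower in Nex in HIP F (-0.58, adjusted p = 0.00562, 11.3% of all genes; -0.45 and 9.18% without library 8), and H2-D1 (-0.32, adjusted p = 0.00851) and C3 (-1.10, adjusted p = 0.0357) were lower in BNST M (25.9%). None was in HIP M (0.0206%) or BNST F (9.32%).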

How the data were processed

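Total RNA came from snap-frozen mouse brain regions by a column kit (miRNeasy Mini), and Novogene made the libraries, per the labels' protocols. HISAT2 2.0.5, featureCounts 1.5.0-p3 and DESeq2 are named in the submitters' processing notes, while the build and strand setting are not given in the sources used here. The deposited values used are raw counts per gene, as the authors deposited them, and the deposited gene lengths. Deposited FPKM and comparison columns were not used.

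Counts were filtered (filterByExpr), scaled (TMM) and tested with edgeR 4.0.16's quasi-likelihood test in R 4.3.3, with Benjamini-Hochberg adjustment over all genes and a threshold of 0.05. The 4 groups of a line and region, or of a line and sex, shared a fit, as did the groups of a line comparison. All 8 members passed the filter in every comparison. Intervals are 1.96 SE to either side, so they are approximate and can be narrower than the quasi-likelihood test gives. CPM came from 1 TMM scaling of all 95 libraries. Single values were compared by exact two-sided permutation tests of log2(CPM + 0.5), 224 in all, and correlations by 100000 permutations within groups. DESeq2 1.42.0, limma 3.58.1 (voom) and sva 3.50.0 served as alternatives. Fits were tested on simulated data. The members and gene lists were chosen with earlier results of these data known. Genes named outside the members are the called genes of each related list with the smallest p, at most 4 per list and comparison, and the 3 most like each member; fewer are printed here. P-values measure the spread between libraries.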

Additional observations from a re-analysis of the deposited data

Results flagged for a closer look

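In 20 of 128 groups of a gene's libraries (16 groups for each of 8 genes), 1 library lay far from the rest of its group by Dixon's gap test. Chance alone flags about 1 in 20 groups if values are normally distributed. The test was run on CPM without logs, low-count genes are skewed, and the members vary together. That rate is therefore only a rough guide, and the 20 flags are not independent. Values are CPM, with the range of the other libraries of the group.

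Library 8 of Dlx HIP F KO was flagged for 5 genes. It had H2-K1 at 139 (others 26.0 to 42.4), H2-D1 at 109 (34.8 to 56.6), Ifit1 at 14.5 (1.26 to 4.55), Ifit3 at 32.4 (3.38 to 8.37) and Irf7 at 19.1 (0.906 to 4.08). Library 7 of Dlx BNST F KO was flagged for the interferon genes, with Ifit1 at 9.66 (2.18 to 3.33), Ifit3 at 32.0 (6.34 to 9.02) and Irf7 at 10.3 (1.85 to 2.90). A library of Nex BNST M KO had Ifit1 at 4.50 (1.37 to 2.27) and Ifit3 at 15.0 (3.94 to 6.22). A library of Dlx BNST M KO had H2-K1 at 51.9 (32.9 to 39.9) and Ifit3 at 20.2 (5.17 to 10.6). A library of Dlx HIP M KO had Irf7 at 3.77 (1.17 to 2.06).

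Among WT libraries, 1 of Nex HIP F had H2-K1 at 54.5 (30.0 to 38.4) and H2-D1 at 60.4 (41.2 to 48.1). C3 was high in Dlx BNST M WT in 1 library at 3.04 (0.601 to 1.23), in 1 library of Dlx BNST M KO at 5.54 (0.646 to 1.46) and in Dlx BNST F WT library 11 at 5.15 (0.362 to 1.87). The last of these also had the highest choroid plexus sum of its group, 1130 CPM. Low values were flagged for H2-D1 in Nex HIP F KO, in 1 library at 39.5 (44.7 to 47.0), and for Ifit3 in Nex HIP F WT, in 1 library at 3.53 (5.28 to 6.14).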

How the results depend on the processing

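Of 842 recomputed counts of members called, 803 stayed within 1.5 times the reported count and 39 moved. Among the 842 were 607 alternatives to a genotype comparison or interaction, each with 0 members reported. None of these 607 called a member, in comparisons where hardly any gene passed, so they add little to the 803. All 39 moves came from the sex, region and line comparisons. The sex comparison in Dlx HIP WT, with 1 member called, gave 0 with median-of-ratios size factors, 0 with no filter on low counts, 2 with DESeq2, 4 with limma voom with quality weights, 6 with 1 surrogate variable, 4 as the mean of both genotypes and 5 as that mean without Dlx HIP F KO replicate 8. Leaving out 1 library gave 0 to 1. The sex comparison in Dlx BNST WT, with 0, gave 3 with voom, 1 with a surrogate variable and 1 as the mean of both genotypes, and leaving out 1 library gave 0 to 2. That in Nex HIP WT, with 0, gave 1 as the mean of both genotypes. By region, Nex M WT, with 1, gave 4 with voom, 2 with a surrogate variable and 4 as the mean of both genotypes. Dlx M WT, with 4, gave 2 with no filter and 7 as the mean of both genotypes. Dlx F WT, with 1, gave 5 with voom, 3 with a surrogate variable, 4 when only the 2 groups were fitted, 4 as the mean of both genotypes without replicate 8, and 0 to 1 leaving out 1 library. By line, each with 0, HIP F WT gave 1 with voom, with a surrogate variable, and as the mean of both genotypes with or without replicate 8; BNST M WT gave 2 as that mean, and BNST F WT gave 3 with voom. The means of both genotypes were chosen after seeing the data. The cause of these moves was not tested. Of 6722 recomputed fold changes, 6621 kept their direction and side of the threshold or changed sign with both unadjusted p at 0.05 or above. Sign changes of that kind numbered 423 over all recomputed results, fold changes or not. A single fold change reversed, that of Ifit3 in the line comparison of HIP F. It was 0.16 in WT and -0.53 as the mean of both genotypes, or -0.07 as that mean without replicate 8.

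The labels do not say that a title number marks a mouse, and not every same-numbered pair of libraries correlated above 0.1: 16 of 42 did (median 0.0734), while 17 correlated best with their own number, a hint from the data and not from the design. With the number as a replicate block, 4 members rather than 3 were called in the region comparison of Nex F WT, Ifit3 being added (-0.51, adjusted p = 0.0253), and no other call in the region comparisons changed. C3, with a median count of 20, and Irf7 and Ifit1, with 42 and 45, are limited by depth.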
